A study of Arabidopsis thaliana with 42 samples.

Results

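The catalases of Arabidopsis thaliana are encoded by CAT1 (AT1G20630), CAT2 (AT4G35090) and CAT3 (AT1G20620). These 3 genes were taken by their locus identifiers from the 33602 loci of the count tables, and all 3 had enough reads to be tested. Messenger RNA was sequenced in 42 libraries from 9-day-old seedlings grown at 22 °C. They were Col-0 wild type or link1link2, a mutant in a pair of genes taken to be LNK1 and LNK2, with alleles not given in the sources used here. In continuous light each genotype had 3 libraries. In long days (16 h light and 8 h dark) each genotype had 3 libraries at each of 6 times, ZT2 to ZT22 every 4 h, where ZT is the number of hours after lights on.

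Catalases are peroxisomal haem enzymes that split hydrogen peroxide into water and oxygen. In leaves much of that peroxide comes from photorespiration, in which glycolate oxidase turns glycolate into glyoxylate inside the peroxisome, and CAT2 is the catalase best known for removing it. CAT3 is known from vascular and ageing tissue, CAT1 from seeds, pollen and stress responses. The CAT2 and CAT3 transcripts are also classic outputs of the circadian clock, CAT2 with a morning phase and CAT3 with an evening phase. LNK1 and LNK2 are light-induced coactivators of MYB-like clock factors such as RVE8, which bind the evening element of their target promoters.

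In the TAIR10.1 annotation of RefSeq, CAT3 (chr1:7142972-7146540) and CAT1 (chr1:7146636-7150180) lie head to tail on the plus strand with 95 bases between them, and CAT2 (chr4:16700312-16703504) lies on the minus strand. The evening element AAAATATCT, the CCA1-binding site AAAAATCT and the G-box CACGTG were searched on both strands upstream of each annotated start. None of these motifs contains another. An evening element lay upstream of CAT3, on the gene's strand, with its first base 79 bases before the start, while 2.36% of 27443 protein-coding genes had one in the same window of 250 bases. In that window neither CAT2 nor CAT1 held any of the 3 motifs, and CAT3 held no other. Within 1000 bases CAT2 held 1 G-box, 773 bases before its start, as did 14.8% of genes. The upstream windows of CAT3 and CAT2 and the gap before CAT1 are shown because the transcripts follow different daily courses, with the evening element in capitals (5′ to 3′ on the gene's strand, TAIR10.1).
CAT3, chr1:7142722-7142971, plus strand: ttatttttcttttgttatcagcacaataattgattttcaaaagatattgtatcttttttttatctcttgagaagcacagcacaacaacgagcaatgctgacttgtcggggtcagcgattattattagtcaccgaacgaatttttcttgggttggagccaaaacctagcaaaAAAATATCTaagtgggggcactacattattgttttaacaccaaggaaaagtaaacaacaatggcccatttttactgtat
CAT2, chr4:16703505-16703754, minus strand: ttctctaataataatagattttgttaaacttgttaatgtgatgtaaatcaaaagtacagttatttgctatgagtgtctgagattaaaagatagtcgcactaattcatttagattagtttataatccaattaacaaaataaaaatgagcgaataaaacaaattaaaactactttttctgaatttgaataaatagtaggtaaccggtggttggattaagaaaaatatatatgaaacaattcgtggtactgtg
CAT1, chr1:7146541-7146635, plus strand: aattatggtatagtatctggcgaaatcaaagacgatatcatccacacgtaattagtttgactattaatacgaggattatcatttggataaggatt
A match is a string of letters and not evidence of binding.

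How well the reads of the 3 genes can be told apart was not tested, and the treatment of multi-mapped reads is not given. The coding sequences of the 3 genes, 1479 bases in each, were identical at 80.26% of positions between CAT1 and CAT2, 76.94% between CAT1 and CAT3 and 76.54% between CAT2 and CAT3. The longest run of identical bases was 32 bases, between CAT1 and CAT2. CAT2 overlaps the locus AT4G35080 on the other strand by 95 bases. That locus held 1.29% to 24.3% as many counts as CAT2 in the long-day libraries, and the strand setting of the counting was not given in the sources used here. CAT1 held 2.18% to 5.87% of the CAT3 counts in the 12 long-day group means, and whether reads that run on from CAT3 add to CAT1 was not tested.

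The continuous-light libraries held 11448934 to 14911921 counts each, and those from long days 7259559 to 13576565. LNK2 had a log2 fold change (link1link2 over wild type) of -3.05 in continuous light and -5.93 at ZT2. LNK1 had -0.74 and -1.77. Both were also called lower at ZT6 and ZT10, but both were called higher in link1link2 at ZT14 (LNK1 2.48, LNK2 1.72) and ZT18 (3.36 and 1.93). At ZT22 LNK1 was higher (1.56) and LNK2 lower (-2.68). Reads of LNK2 were found in link1link2 at every time, at means of 11.9 to 28 CPM in long days, against 7.36 to 730 CPM in wild type. As a check of the labels, the levels were thus lower in the mutant from ZT2 to ZT10 and not at ZT14 or ZT18. Chloroplast transcripts made up over 2% of the counts in 4 long-day libraries. These were replicate B of wild type at ZT10, replicate C of link1link2 at ZT2, and both A and C of link1link2 at ZT22. The 5 markers of green tissue summed to 28723 to 46763 CPM in the long-day libraries of wild type and 34139 to 48242 in those of link1link2. All 8 root markers were detected, at a summed 69.8 to 109 CPM per long-day library with overlapping ranges in both genotypes. SCR made up much of that sum, at 37.6 CPM in wild type at ZT10 and 69.7 at ZT2. Of the 8, 2 were called lower in link1link2 at ZT22 and none higher, where 30.6% of genes were called. At each of ZT6 and ZT10 1 was called higher and none lower, where 20.1% and 22.1% of genes were called. Of 6 seed markers, SESA1 was at 0 in every library, and the list summed to at most 15.7 CPM. SAG12, the defining marker of leaf senescence, was at 0 in every library, and the 3 senescence markers summed to 2.43 to 14.2 CPM in long-day wild type and 5.06 to 22.9 in link1link2. The labels do not say whether replicates were grown apart. The p-values therefore reflect only how much these samples vary, and that variation may be technical. In whole seedlings, fewer cells of a type and less RNA per cell cannot be told apart.

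Levels are CPM, a gene's counts scaled to 1e6 counts per library with edgeR's TMM factors, as mean ± SD of 3 libraries. Differences between genotypes are log2 fold changes, positive where link1link2 was higher, ± standard error (SE). They come from edgeR's quasi-likelihood test, with p adjusted by Benjamini-Hochberg over all genes tested, and those under 0.05 are said to be called.

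CAT2, the photorespiratory catalase, was a morning transcript in wild type. At ZT2 it was the rank 57 transcript of 20332 per length, and by ZT10 it had dropped to rank 1270. Its highest mean was 17.6 times its lowest, a log2 range exceeded by 0.638% of 20518 genes. In link1link2 CAT2 was also highest at ZT2, but it was higher than wild type from ZT6 to ZT14 and lowest at ZT18. Its highest mean was 5.03 times its lowest.

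At ZT2 the wild-type libraries held 3653, 3150.1 and 3239 CPM of CAT2 and those of link1link2 2651, 3162 and 3390.1 CPM. The groups overlapped, and the difference of -0.13 ± 0.14 was not called (adjusted p = 0.631, where 16.1% of all genes were called). At ZT6 the wild type had 873, 857 and 826 CPM and link1link2 1504, 1752 and 1411 CPM. All mutant libraries were higher, a log2 fold change of 0.87 ± 0.15 (adjusted p = 6.75e-05, where 20.1% of genes were called). The widest gap came at ZT10, with 182, 215 and 172 CPM in wild type and 855, 896 and 1170.5 CPM in link1link2. The lowest mutant library held far more CAT2 than the highest wild-type one, and the log2 fold change was 2.36 ± 0.15 (adjusted p = 2.64e-12, where 22.1% of genes were called).

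At ZT14, 2 h before dusk, CAT2 was at 358, 492 and 314 CPM in wild type and at 834, 800.0 and 763 CPM in link1link2. The groups stayed apart, by 1.04 ± 0.15 (adjusted p = 1.14e-05, where 14.7% of genes were called). In the night the sign turned. At ZT18 the wild type had 836, 722 and 949.8 CPM and link1link2 603, 558 and 667 CPM. The mutant was lower by a fold change of -0.46 ± 0.15 (adjusted p = 0.0268, where 20.2% of genes were called). This call was lost when any of 4 libraries was left out, namely A (-0.46) or C (-0.35) of wild type, or A (-0.45) or B (-0.40) of link1link2. At ZT22 the wild type had already climbed to 1276, 1013 and 1356 CPM, and link1link2 was at 736, 689 and 809 CPM. Every mutant library was below every wild-type one, a fold change of -0.71 ± 0.15 (adjusted p = 0.000496, where 30.6% of genes were called).

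**Figure D1:**
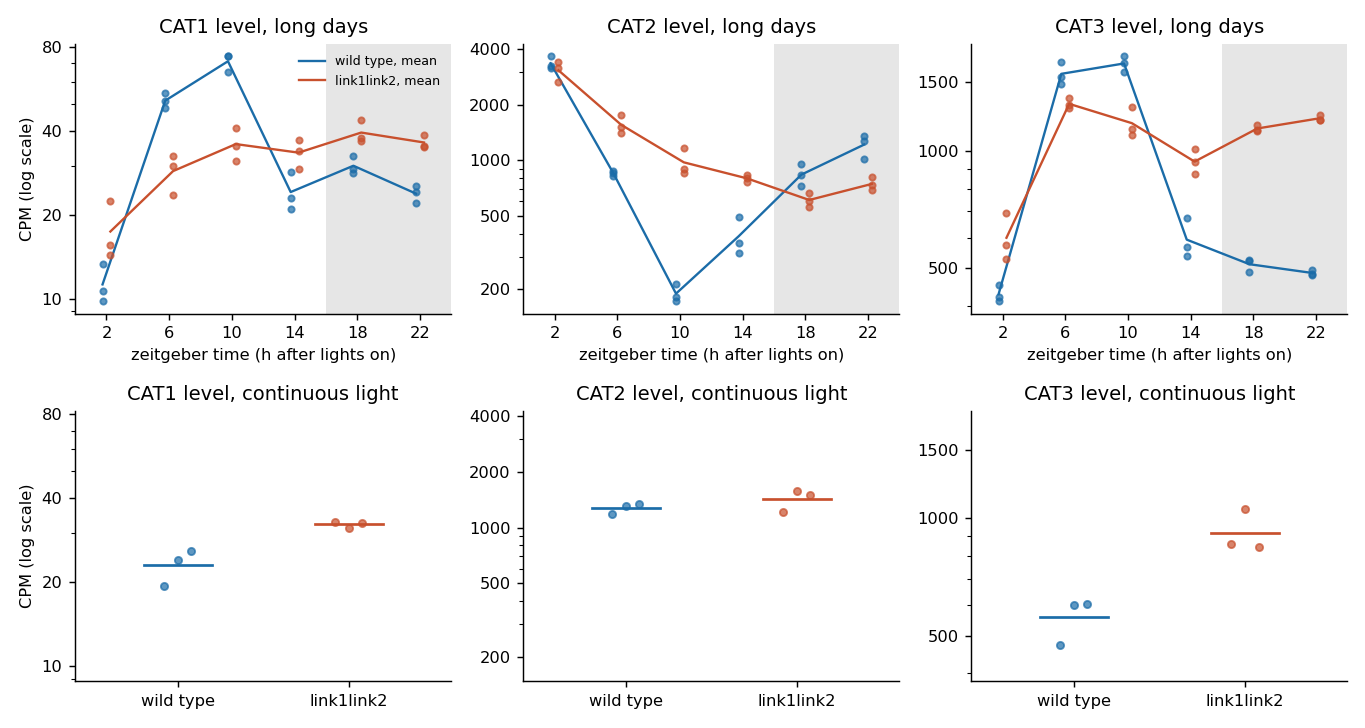
CPM (log scale) of CAT1, CAT2 and CAT3 by zeitgeber time in long days (upper row) and in continuous light (lower row). Points are libraries, lines join or mark the means of 3 libraries, and grey marks the dark period. Wild-type CAT2 dips to 189.7 CPM at ZT10 and wild-type CAT3 peaks there at 1677 CPM, while both curves of link1link2 are flatter.

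Ordered from high to low, the wild-type CAT2 means were 3347 ± 269 CPM at ZT2, 1215 ± 179.7 at ZT22, 852 ± 23.6 at ZT6, 836 ± 114 at ZT18, 388 ± 92.3 at ZT14 and 189.7 ± 22.2 at ZT10. Of these neighbours ZT6 and ZT18 were not called as different (a log2 difference of 0.03 ± 0.15, adjusted p = 0.893, where 50.1% of genes were called). In link1link2 the order was ZT2 (3068 ± 378 CPM), ZT6 (1556 ± 176), ZT10 (974 ± 171), ZT14 (799 ± 35.3), ZT22 (745 ± 60.5) and ZT18 (609 ± 54.5). CAT2 thus ran down from morning to night in the mutant. The steps from ZT10 to ZT14 (adjusted p = 0.162, where 23.7% of genes were called), between ZT14 and ZT22 (adjusted p = 0.580, where 56.5% were called) and from ZT18 to ZT22 (adjusted p = 0.157, where 25.3% were called) were not called, although the libraries overlapped only between ZT14 and ZT22.

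CAT3 took a different course in wild type. It was lowest at ZT2 and high at ZT6 and ZT10, and by ZT14, still in the light, it was at 592 ± 70.6 CPM. Over the 6 wild-type means its log2 level had a Pearson correlation of -0.64 with that of CAT2. In link1link2 it was lower than wild type at ZT6 and ZT10 and higher at every other time, and at ZT18 and ZT22 it was over 1000 CPM in every library. The wild-type mean was 3.90 times higher at its highest than at its lowest time, and that of link1link2 2.21 times.

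At ZT2 the wild-type libraries held 411, 423 and 454 CPM of CAT3 and those of link1link2 528, 575 and 694 CPM. All mutant libraries were higher, by 0.48 ± 0.08 (adjusted p = 1.24e-05). At ZT6 the values were 1489.8, 1694 and 1549 CPM in wild type and 1312, 1288 and 1365 CPM in link1link2. The mutant libraries were the lower ones, with a fold change of -0.26 ± 0.08 (adjusted p = 0.0128). Leaving out replicate B of wild type (-0.20) or of link1link2 (-0.23) ended that call. At ZT10 CAT3 was at 1683, 1750.3 and 1598 CPM in wild type and at 1101, 1142 and 1293 CPM in link1link2. The groups were well separated, with a fold change of -0.51 ± 0.08 (adjusted p = 1.20e-06).

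From ZT14 on the mutant was the higher one. At ZT14 wild-type CAT3 stood at 568, 672 and 537 CPM and link1link2 at 872, 1010.3 and 936 CPM, a difference of 0.66 ± 0.08 (adjusted p = 1.18e-08). At ZT18 wild type had 523, 525 and 489.7 CPM and link1link2 1168, 1131 and 1128 CPM. All mutant libraries were far above the wild-type ones (1.16 ± 0.08, adjusted p = 4.00e-15). The gap was widest at ZT22, where 483, 482 and 495 CPM in wild type stood against 1200.4, 1240.0 and 1201 CPM in link1link2. There the fold change was 1.32 ± 0.08 (adjusted p = 3.35e-17). A senescence marker, the transcription factor gene NAC092, was also higher in link1link2 at these times. Its mean was 8.15 against 2.96 CPM at ZT14 (1.43 ± 0.23), 9.73 against 4.02 at ZT18 (1.27 ± 0.20) and 12.3 against 6.33 at ZT22 (0.97 ± 0.18). SAG13, the other detected one, was called higher at ZT14 (2.83) and lower at ZT22 (-2.69). At ZT10, where CAT3 was lower, both were called higher (NAC092 0.69, SAG13 3.47). SAG13 was scarce and uneven, at 0.799 ± 0.704 CPM in wild type against 5.76 ± 5.59 in link1link2 at ZT14. It had 6 counts in all in wild type at ZT10 and 13 in link1link2 at ZT22. The part of both markers in the CAT3 result was not tested.

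In wild type the order of the CAT3 means was ZT10 (1677 ± 76.1 CPM), ZT6 (1578 ± 105), ZT14 (592 ± 70.6), ZT18 (512 ± 19.7), ZT22 (487 ± 6.85) and ZT2 (429.7 ± 22.0). ZT10 and ZT6 were not called as different (adjusted p = 0.475, where 22.5% of genes were called), nor were ZT18 and ZT22 (adjusted p = 0.549, where 22.0% were called). In link1link2 the order was ZT6 (1321 ± 39.3 CPM), ZT22 (1214 ± 22.7), ZT10 (1179 ± 101), ZT18 (1142 ± 22.6), ZT14 (939 ± 69) and ZT2 (599 ± 85.5). ZT6 and ZT22 were not called as different, although their libraries did not overlap (adjusted p = 0.163, where 62.1% of genes were called). Neither were ZT22 and ZT10 (adjusted p = 0.651, where 61.5% were called) or ZT10 and ZT18 (adjusted p = 0.643, where 53.8% were called). The ends of these 4, ZT6 and ZT18, were called as different (-0.21 ± 0.08 for ZT18 over ZT6, adjusted p = 0.0179, where 56.4% of genes were called).

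CAT1 was the scarcest catalase transcript, at 0.318% to 3.77% of the catalase counts per length in the 12 long-day means. In wild type it was lowest at ZT2 and highest at ZT10, like CAT3, and link1link2 was lower at ZT6 and ZT10 and higher at the other times. The highest wild-type mean was 6.33 times the lowest, and the highest of link1link2 2.27 times.

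At ZT2 CAT1 was at 10.7, 9.77 and 13.3 CPM in wild type and at 15.6, 14.3 and 22.3 CPM in link1link2. All mutant libraries were higher (0.66 ± 0.17, adjusted p = 0.00511). The call was lost without replicate B of wild type (0.52), without replicate C of link1link2 (0.42), which had over 2% chloroplast counts, and without all 4 such libraries (0.44). At ZT6 the values were 51.1, 48.5 and 54.6 CPM in wild type and 30.0, 32.5 and 23.6 CPM in link1link2. The groups did not overlap, and the fold change was -0.84 ± 0.13 (adjusted p = 6.53e-06). At ZT10 wild type had 74.2, 74.2 and 65.2 CPM and link1link2 35.4, 31.3 and 40.9 CPM. All mutant libraries were lower (-0.98 ± 0.12, adjusted p = 8.98e-08).

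At ZT14 CAT1 was at 22.9, 28.4 and 21.1 CPM in wild type and at 37.2, 33.9 and 29.2 CPM in link1link2. The mutant libraries were higher (0.46 ± 0.13, adjusted p = 0.0171). The call did not survive the loss of library A (0.42) or C (0.38) of wild type, or of A (0.39) or B (0.45) of link1link2. At ZT18 the values were 29.2, 28.2 and 32.6 CPM against 36.7, 37.7 and 43.9 CPM. The difference of 0.40 ± 0.13 (adjusted p = 0.0226) had no overlap of libraries, but it was not called once A (0.38) or B (0.35) of wild type or C (0.31) of link1link2 was left out. At ZT22 wild type had 24.1, 22.1 and 25.3 CPM and link1link2 38.8, 35.1 and 35.2 CPM. The groups were well apart (0.60 ± 0.13, adjusted p = 0.000445).

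The order of the wild-type CAT1 means was ZT10 (71.2 ± 5.19 CPM), ZT6 (51.4 ± 3.05), ZT18 (30.0 ± 2.28), ZT14 (24.1 ± 3.82), ZT22 (23.8 ± 1.62) and ZT2 (11.2 ± 1.84). ZT18 and ZT14 were not called as different (adjusted p = 0.0724, where 37.6% of genes were called), nor were ZT14 and ZT22 (adjusted p = 0.916, where 43.8% were called). In link1link2 the order was ZT18 (39.5 ± 3.91 CPM), ZT22 (36.4 ± 2.09), ZT10 (35.9 ± 4.80), ZT14 (33.4 ± 4.03), ZT6 (28.7 ± 4.61) and ZT2 (17.4 ± 4.31). No neighbours above ZT2 were called as different, with adjusted p = 0.523 for ZT18 and ZT22, 0.945 for ZT22 and ZT10, 0.589 for ZT10 and ZT14 and 0.211 for ZT14 and ZT6 (where 35.0% of genes were called). Times further apart in this order were, with ZT18 over ZT6 at 0.46 ± 0.13 (adjusted p = 0.00303) and ZT22 over ZT6 at 0.34 ± 0.13 (adjusted p = 0.0238).

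**Figure D2:**
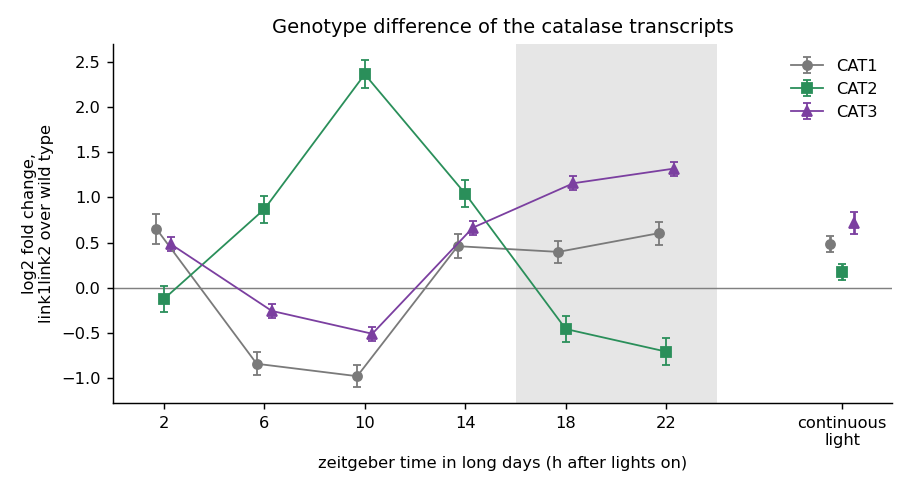
Log2 fold change of link1link2 over wild type (points) with its SE (bars) for CAT1, CAT2 and CAT3 by zeitgeber time in long days, and in continuous light at the right. Grey marks the dark period. CAT2 reaches 2.36 at ZT10, where CAT1 (-0.98) and CAT3 (-0.51) are at their lowest, and CAT2 lies below 0 at night, where the other 2 lie above it.

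The genotype difference depended on the time of day for each catalase. The test of the interaction was called for CAT2 (adjusted p = 1.48e-11), CAT3 (6.19e-19) and CAT1 (2.57e-10), as it was for 41.9% of all genes. The 6 log2 differences, averaged with equal weights, were 0.50 ± 0.06 for CAT2 (adjusted p = 2.59e-07) and 0.48 ± 0.03 for CAT3 (adjusted p = 5.56e-16), where 33.9% of genes were called. Both means join differences of opposite sign, and that of CAT2 includes 2.36 at ZT10, where its wild-type level was lowest. As CPM averaged over the 6 times, CAT2 was at 1138 in wild type and 1292 in link1link2, and CAT3 at 879 and 1066. For CAT1 the differences of opposite sign left a mean of 0.05 ± 0.05 that was not called (adjusted p = 0.526). Time of day itself was called within both genotypes for all 3 genes, as for 79.9% of genes in wild type and 83.8% in link1link2.

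A 24 h cosine fitted to log2 CPM made each course flatter in link1link2 and placed those of CAT2 and CAT1 later. The CAT2 peak moved from ZT0.201 to ZT4.11, a delay of 3.91 ± 0.779 h, with a peak-to-trough height of 3.36 in wild type and 1.90 in link1link2 on the log2 scale. The wild-type peaks were at ZT8.69 for CAT3 and ZT10.4 for CAT1, after that of CAT2. For CAT1 the peak moved to ZT15.3, a delay of 4.92 ± 1.49 h, with the height cut from 1.68 to 0.83. The cosine explained a share of only 0.477 of the CAT1 variance in wild type and 0.457 in link1link2. For CAT3 a cosine explained a share of 0.752 of the variance in wild type but only 0.107 in link1link2, so its mutant peak time cannot be placed (ZT13.0 ± 2.85 h). The rhythm differed between genotypes by the cosine test for CAT2 (adjusted p = 0.00111), CAT3 (0.00105) and CAT1 (0.0190), as for 15.3% of all genes. The call of CAT1 was lost without the libraries of over 2% chloroplast counts (adjusted p = 0.143).

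The makeup of the catalase transcripts changed through the wild-type day. Counted per kilobase of transcript (median annotated length), CAT2 supplied 87.8% ± 1.23 of the catalase transcripts at ZT2 and 9.33% ± 0.631 at ZT10, and CAT3 11.9% ± 1.18 and 86.9% ± 0.619. In link1link2 the CAT2 share was 82.6% ± 0.940 at ZT2, 43.1% ± 2.08 at ZT10 and 32.8% ± 2.01 at ZT18, its lowest. In wild type CAT2 was ahead again in the night, with 59.2% ± 3.98 at ZT18 and 69.1% ± 3.06 at ZT22. The lead also changed in link1link2, where CAT2 led at ZT2 and CAT3 at ZT18 and ZT22. There CAT2 was not yet ahead again at ZT22, with a share of 36.1% ± 2.21.

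The log2 ratio of CAT2 to CAT3 per kilobase ran in wild type from 2.89 ± 0.17 at ZT2 to -3.22 ± 0.11 at ZT10 and was back at 1.24 ± 0.21 at ZT22. In link1link2 it ran from 2.29 ± 0.09 at ZT2 to -0.36 ± 0.12 at ZT10 and was -0.78 ± 0.14 at ZT22. No library of one genotype overlapped the other at these times. With all annotated exons as the length every ratio was higher by the same amount. That brought the ratios of link1link2 at ZT10 to 0.00472 and at ZT14 from -0.30 to 0.06, so which of CAT2 and CAT3 was ahead there depends on the length used.

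**Figure D3:**
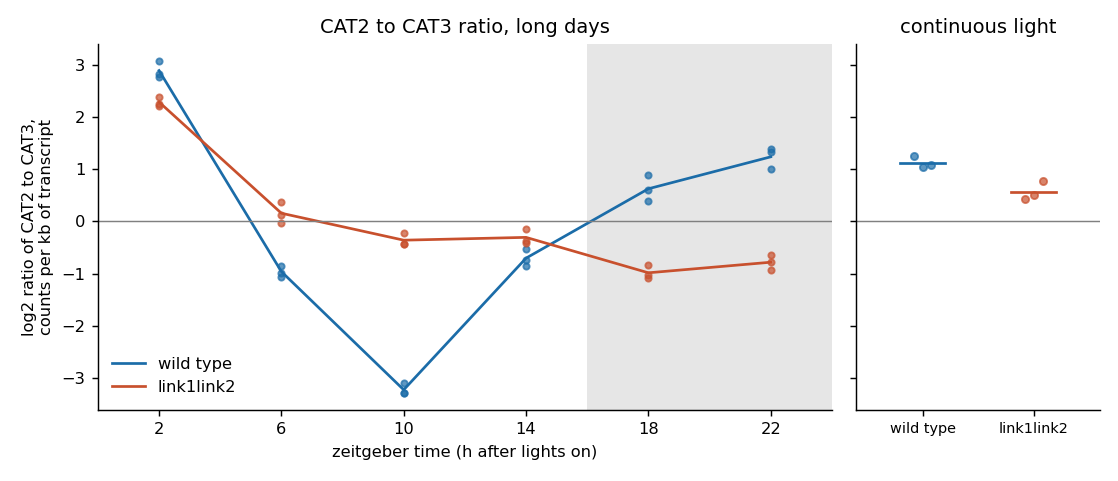
Log2 ratio of CAT2 to CAT3 counts per kilobase of transcript in each library (points) and as the mean of 3 libraries (lines), by zeitgeber time in long days and in continuous light. Grey marks the dark period and the horizontal line equal levels. Wild type swings from 2.89 at ZT2 to -3.22 at ZT10, and the means of link1link2 stay between 2.29 and -0.98.

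Summed over the 3 genes, catalase transcripts per kilobase were highest at ZT2 in both genotypes, at 1593 ± 107 CPM per kb in wild type and 1553 ± 194 in link1link2. In wild type they were lowest at ZT14, at 433 ± 71.3 CPM per kb. The lowest mean of link1link2 was also at ZT14 (762 ± 27.7), but its libraries overlapped those at ZT18. With all annotated exons as the length, the mean of link1link2 was lower at ZT18 than at ZT14. At ZT14 the 3 wild-type libraries (409.8, 513 and 377 CPM per kb) all lay below the 3 of link1link2 (748, 793 and 743). At ZT2 and ZT10 the groups overlapped. The link1link2 libraries were also all higher at ZT6 (1244 ± 60.4 against 1072 ± 45.2), ZT18 (774 ± 24.3 against 588 ± 41) and ZT22 (861 ± 18.1 against 732 ± 78.1). With all annotated exons as the length, the groups overlapped at ZT22, and at ZT10 all link1link2 libraries were higher. Which genotype was ahead at ZT10 and ZT22 thus depends on the length used. The long-day sums were not tested.

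**Figure D4:**
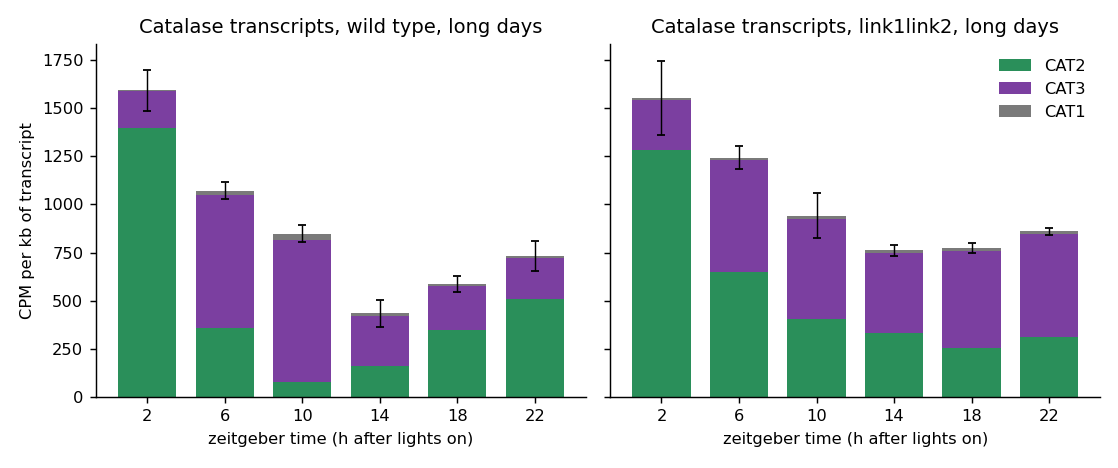
Stacked mean CPM per kilobase of transcript of CAT2, CAT3 and CAT1 by zeitgeber time in wild type and link1link2, with the SD of the sum over 3 libraries as bars. In wild type CAT2 (green) shrinks to 9.33% of the stack at ZT10, and in link1link2 it still makes up 43.1% there.

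Across the 12 long-day group means, the log2 levels of CAT1 and CAT3 had a Pearson correlation of 0.84, those of CAT1 and CAT2 of -0.80 and those of CAT2 and CAT3 of -0.51. These describe the courses, which share libraries and times of day. The genes whose course was most like that of CAT2 were UGT74D1, a glucosyltransferase (r = 0.97), AT1G64500 (0.95), TAT7, a tyrosine aminotransferase (0.95), AT5G19760 (0.95) and ABCG22, an ABC transporter (0.95). Most like CAT3 were AT5G65530 (0.92), the small GTPase gene GB2 (0.92), the aconitase gene ACO1 (0.91), TUB6, a beta-tubulin (0.91), and NPH3, a phototropin signalling gene (0.89). Over the 6 means of link1link2 alone, r with CAT3 was 0.57 for AT5G65530, 0.79 for GB2, 0.69 for ACO1, 0.62 for TUB6 and 0.95 for NPH3. ELF5 (0.97), TUB5 (0.97), RPA1A (0.96), ORP2A (0.96) and GALK (0.96) were most like CAT1. UGT74D1, AT5G19760, GB2, TUB6, NPH3 and ORP2A each overlap another locus.

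In continuous light the comparison asked how the genotypes differed without a light-dark cycle. CAT3 and CAT1 were higher in link1link2, and CAT2 was not called. No harvest time was given for these libraries, so a difference in level cannot be told apart from one in phase.

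CAT3 was at 473, 601 and 603 CPM in wild type and at 857, 1058 and 842 CPM in link1link2. All mutant libraries were higher, a log2 fold change of 0.72 ± 0.12 (adjusted p = 0.0163, where 5.15% of genes were called). When replicate C of wild type was left out the value was 0.78 and not called (adjusted p = 0.0550). CAT1 was at 19.4, 24.0 and 25.9 CPM in wild type and at 32.8, 31.3 and 32.7 CPM in link1link2, with no overlap (0.48 ± 0.09, adjusted p = 0.00124). CAT2 was at 1178, 1303 and 1333 CPM in wild type and at 1206, 1577 and 1506 CPM in link1link2. The groups overlapped, and the difference of 0.17 ± 0.09 was not called (adjusted p = 0.370). Without replicate A of link1link2 it was 0.28 and called (adjusted p = 0.020).

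The log2 ratio of CAT2 to CAT3 per kilobase was 1.24, 1.05 and 1.07 in the wild-type libraries and 0.42, 0.50 and 0.77 in those of link1link2. All mutant values were lower, with a mean difference of -0.56. The exact permutation test (two-sided) gave p = 0.1, the smallest that 3 libraries against 3 allow. CAT2 made up 67.6% ± 1.62 of the catalase transcripts per kilobase in wild type and 58.8% ± 2.97 in link1link2. The continuous-light and long-day tables were scaled separately, and no test was made between them.

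Photorespiration genes, which include the enzymes that make the peroxide CAT2 removes, were examined as 31 genes beside the catalases. In link1link2 more of them were lower at ZT2 and from ZT14, still in the light, to ZT22, and more were higher at ZT6 and ZT10. At ZT2 15 fell, at ZT6 14 rose, at ZT10 11 rose, and 12 fell at ZT14, 19 at ZT18 and 22 at ZT22. In the opposite direction 2 rose at ZT2, 3 fell at ZT6, 1 fell at ZT10, none rose at ZT14 and 1 rose at each of ZT18 and ZT22. At ZT14 no member rose by edgeR or DESeq2, and 0 had an unadjusted p under 0.05 in that direction. The list medians were -0.20, 0.17, 0.09, -0.16, -0.22 and -0.29 from ZT2 to ZT22, beside medians of all genes tested between -0.00437 and 0.0186. Of all genes, 7.58% fell at ZT2, 6.98% at ZT14, 9.59% at ZT18 and 14.1% at ZT22, and 10.1% rose at ZT6 and 11.4% at ZT10. Green tissue markers moved as well. Of 5, 4 fell at ZT2, 3 rose and 2 fell at ZT6, 2 rose at ZT10, 3 rose and 1 fell at ZT14, 2 rose and 3 fell at ZT18, and 1 rose and 4 fell at ZT22. The 4 that fell at ZT22 were 2 without replicate B of link1link2, and the 3 that rose at ZT6 were 1 without B or C of wild type or B of link1link2. Their part in the photorespiration counts was not tested.

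Among these genes, GLDP1 and GLDP2 encode the P protein of glycine decarboxylase, the mitochondrial step that releases carbon dioxide. GLDP2 rose at ZT10 from 313 ± 23.0 to 602 ± 18.5 CPM (0.94 ± 0.08) and fell at ZT22 from 369 ± 15.8 to 226 ± 5.29 CPM (-0.71 ± 0.08). GLDP1 changed in the same directions, by 0.60 ± 0.10 at ZT10 and -0.97 ± 0.10 at ZT22. PLGG1, the plastid carrier for glycolate and glycerate, fell at ZT2 (-0.64 ± 0.06) and at ZT22 (-0.98 ± 0.07). GOX1, a glycolate oxidase, fell at ZT18 from 1399 ± 56.2 to 958 ± 41.7 CPM (-0.55 ± 0.06), but GOX1 and GOX2 are near-identical copies whose reads may have been split. At ZT14 CAT2 rose (1.04) while BOU, a mitochondrial carrier (-0.59 ± 0.07), and GLDT, the T protein (-0.37 ± 0.06), fell.

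**Figure D5:**
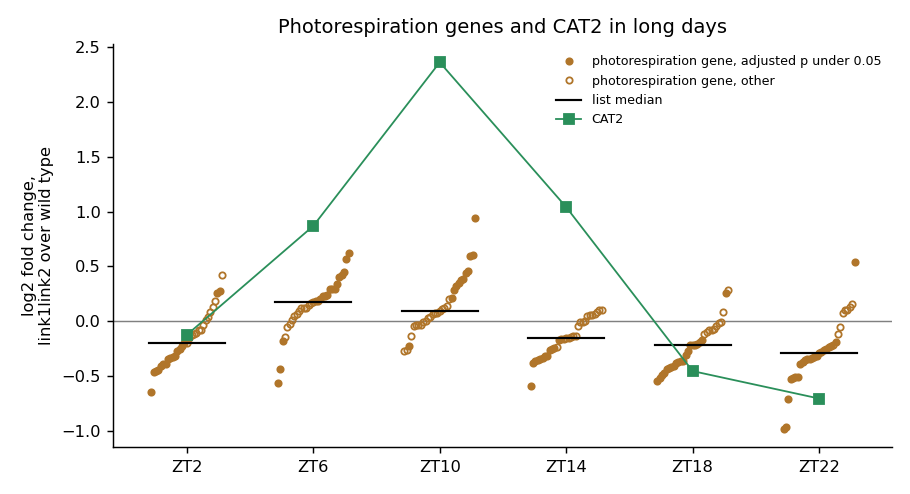
Log2 fold change of link1link2 over wild type for 31 photorespiration genes at each long-day time (circles, filled where the adjusted p was under 0.05), the median of the list (black line) and CAT2 (green squares). The list median goes from -0.20 at ZT2 to 0.17 at ZT6 and -0.29 at ZT22, and CAT2 lies above the whole list at ZT6, ZT10 and ZT14.

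In continuous light 4 photorespiration genes fell and none rose by edgeR, with 13 lower and 2 higher at an unadjusted p under 0.05 and 9 lower by DESeq2. BOU fell by 0.29 on the log2 scale (SE 0.05). The count of 4 fell to 1 or 2 when any wild-type library, or B or C of link1link2, was left out. Of all genes 2.98% fell.

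The ascorbate-glutathione cycle is the other main route of peroxide removal in leaf cells. Of its 16 tested genes 3 rose and 2 fell at ZT2, 8 rose and 1 fell at ZT6, 5 rose and 2 fell at ZT10, 4 rose and 2 fell at ZT14, and 5 fell at each of ZT18 and ZT22. Of all genes, 10.1% rose at ZT6, 11.4% at ZT10 and 7.72% at ZT14, and 9.59% fell at ZT18 and 14.1% at ZT22. The shares of all genes that fell from ZT6 to ZT14 were, in turn, 9.98%, 10.7% and 6.98%. In the ZT2 comparison 8.53% rose and 7.58% fell. The list counts for ZT2, and those of falls from ZT6 to ZT14, are thus not far from the background. The count at ZT22 was 3 without replicate B of link1link2 at ZT22. None rose at ZT18 or ZT22 by edgeR or DESeq2, with 0 and 1 higher at an unadjusted p under 0.05. The list medians were 0.22 at ZT6, 0.10 at ZT10 and -0.03 at ZT22. At ZT6 the cytosolic ascorbate peroxidase APX1 rose from 319 ± 7.10 to 519 ± 28.8 CPM (0.70 ± 0.12) and the stromal sAPX from 52.7 ± 1.96 to 87.3 ± 4.68 CPM (0.73 ± 0.15). The thylakoid tAPX fell (-0.22 ± 0.06). The glutathione reductase GR2 rose at ZT10 (0.53 ± 0.06) and fell at ZT22 (-0.42 ± 0.06), the same signs as CAT2 at both times. In continuous light 3 of the list rose and 2 fell by edgeR, where 5.15% of all genes were called, and 3 rose and 1 fell by DESeq2. DHAR1, a dehydroascorbate reductase, fell (-0.36 ± 0.06), as did MDAR2 (-0.19 ± 0.05). Those that rose were sAPX (0.31 ± 0.08), APX1 (0.30 ± 0.07) and tAPX (0.27 ± 0.05).

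Of 13 tested peroxiredoxin and glutathione peroxidase-like genes, 2 rose and 3 fell at ZT10 and 2 rose and 1 fell at ZT22, with list medians of 0.06 and -0.00452. Of all genes 11.4% rose and 10.7% fell at ZT10, and 16.6% rose and 14.1% fell at ZT22, so the counts at these 2 times are near the background. At ZT2 2 rose and 4 fell, where 16.1% of all genes were called, and at ZT6 3 rose and 2 fell, where 20.1% were called. At ZT14 1 rose, and at ZT18 2 fell, where 14.7% and 20.2% of all genes were called. GPX6 fell at ZT10 from 192 ± 0.929 to 99.9 ± 3.61 CPM (-0.94 ± 0.07), opposite to CAT2. GPX1, a plastid member, fell at ZT6 from 536 ± 12.3 to 316 ± 34.0 CPM (-0.76 ± 0.08) and rose at ZT14 (0.43 ± 0.08).

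Genes of the peroxisome itself were also counted. Of 24 genes for peroxisome biogenesis and import, 1 rose and 8 fell at ZT10 and 8 rose and 2 fell at ZT22. The list medians were -0.16 and 0.13, and of all genes 10.7% fell at ZT10 and 16.6% rose at ZT22. Without replicate B of wild type 5 fell at ZT10, and without the libraries of over 2% chloroplast counts 5 rose at ZT22. Among those that fell at ZT10 was PEX11D, of the family that divides peroxisomes (-0.52 ± 0.06), and among those that rose at ZT22 was PEX7, a receptor for imported proteins (0.64 ± 0.09). Of 17 genes of beta-oxidation and the glyoxylate cycle, 6 fell at ZT10, and 7 rose and 2 fell at ZT22 (medians -0.21 and 0.17), beside the same 10.7% of all genes falling at ZT10 and 16.6% rising and 14.1% falling at ZT22. None of them rose at ZT10 by edgeR or DESeq2, and 2 were higher at an unadjusted p under 0.05. The acyl-CoA oxidase gene ACX4 rose at ZT22 from 124 ± 6.63 to 190.3 ± 9.79 CPM (0.61 ± 0.07), as CAT3 did.

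Of 5 genes whose products act on catalases, 3 rose at ZT18 and at ZT22, where 10.6% and 16.6% of all genes rose. GBF1, a bZIP factor known to repress CAT2, fell at ZT2 (-0.35 ± 0.07) and ZT6 (-0.38 ± 0.07) and rose at ZT18 from 56.7 ± 2.13 to 79.9 ± 3.78 CPM (0.50 ± 0.06) and at ZT22 (0.29 ± 0.06). LSD1, a zinc-finger protein that binds catalases, and CPK8, a kinase that phosphorylates CAT3, were the others (0.43 ± 0.09 and 0.34 ± 0.06 at ZT22), but each overlaps a locus with at least 50% as many counts. NCA1, a chaperone that catalases need for activity, fell by 0.17 at ZT10 (SE 0.06), a call lost in 17 of 42 alternatives. Of 9 transcripts known to respond to hydrogen peroxide, 0 were called by edgeR at ZT2 and ZT18. Of all genes 16.1% and 20.2% were called at these times, so 0 of 9 is not far from the background. At both times 0 had an unadjusted p under 0.05 and 0 were called by DESeq2. Some were scarce, with RRTF1 at 1.88 and UPOX at 1.65 CPM in wild type at ZT2. AOX1A, a mitochondrial alternative oxidase, fell at ZT6 (-0.60 ± 0.10), at ZT10 (-0.27 ± 0.10, lost in 18 of 42 alternatives) and at ZT22 (-0.47 ± 0.11). The call at ZT22 was lost without the libraries of over 2% chloroplast counts (-0.31). UGT74E2, a glucosyltransferase, rose at ZT14 from 5.05 ± 1.77 to 9.80 ± 3.68 CPM (0.91 ± 0.26), which was not called without replicate A of wild type or of link1link2. At ZT14 edgeR called 1 marker higher, where it called 14.7% of all genes in either direction. DESeq2 called 2 markers higher there, and 3 were higher at an unadjusted p under 0.05. GSTU24, a glutathione transferase with a near-identical copy, fell at ZT22 (-0.58 ± 0.22, lost in 22 of 42 alternatives). At ZT22 edgeR called 2 markers lower, where it called 30.6% of all genes in either direction. DESeq2 called 3 markers lower at that time, and 4 were lower at an unadjusted p under 0.05. In continuous light, where edgeR called 5.15% of all genes, none was called by edgeR or DESeq2. There 2 were higher and 1 lower at an unadjusted p under 0.05.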

How the data were processed

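The authors deposited raw read counts per locus as 2 tables, for continuous light and long days, per the file headers, and the build was TAIR 10 per the submitters' processing notes. The aligner, the counter, the strand setting and the treatment of multi-mapped reads are not given in the sources used here. Columns of the mutant carry a laboratory name and were assigned by elimination. Their letters A to C could not be matched to the labels' replicate numbers, and are used here as replicate names. The series text gives a longer growth time for continuous light than the 9 days of the labels. Each table was analysed by itself in R 4.3.3 with edgeR 4.0.16 (filter on low counts, TMM, glmQLFit and glmQLFTest, Benjamini-Hochberg adjustment), with 20158 genes tested in continuous light and 20518 in long days. DESeq2 1.42.0 was an alternative. A cosine of 24.0 h fitted to log2 CPM gave the peak times and heights. The cosine difference between genotypes was tested on the counts by edgeR's quasi-likelihood test. The tests were tried on simulated data. The 12 long-day groups shared 1 fit. CPM per kilobase used median transcript lengths of RefSeq TAIR10.1, in which 97.7% of identifiers matched. Named list genes were up to 3 per list and direction by fold among those called, and the 5 genes of most similar course per catalase. The members and lists were chosen with earlier results of these data known.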

Additional observations from a re-analysis of the deposited data

Results flagged for a closer look

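For each of the 3 catalases the difference between link1link2 and wild type was not the same at all 6 times of day, by edgeR's quasi-likelihood test of genotype by time. The adjusted p was 6.19e-19 for CAT3, 1.48e-11 for CAT2 and 2.57e-10 for CAT1, and 41.9% of all genes were called by this test. The CAT3 difference ran from -0.51 at ZT10 to 1.32 at ZT22, that of CAT2 from 2.36 at ZT10 to -0.71 at ZT22, and that of CAT1 from -0.98 at ZT10 to 0.66 at ZT2.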

How the results depend on the processing

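Of 37 catalase results, 29 kept their direction and their side of the threshold under every alternative, and none reversed. The alternatives were DESeq2, other size factors, no filter on low counts, each time fitted alone, a replicate block, the libraries of over 2% chloroplast counts left out, and each library left out in turn. Leaving out 1 library gave 0.60 to 0.78 for CAT3 and 0.0931 to 0.28 for CAT2 in continuous light, 0.42 to 0.77 for CAT1 at ZT2, -0.29 to -0.20 for CAT3 at ZT6, 0.38 to 0.60 for CAT1 at ZT14, 0.31 to 0.46 for CAT1 at ZT18 and -0.55 to -0.35 for CAT2 at ZT18. Each of these changed side in at least 1 case, and the cause was not tested beyond there being fewer samples. Without the libraries of over 2% chloroplast counts CAT1 was at 0.44 at ZT2 and its cosine difference had an adjusted p of 0.143, neither called. With the column letter as a replicate block, CAT2 in continuous light (0.16) was called, and 1888 genes were called there in place of 1039. That count was 692 by DESeq2 and 657 without replicate B of wild type. With each time fitted alone 2028 genes were called at ZT2 in place of 3306 and 1704 at ZT14 in place of 3016. Without the libraries of over 2% chloroplast counts 3695 were called at ZT22 in place of 6285, and 1647 by the cosine in place of 3148. Over 21 pairs of libraries that share a letter, correlations of deviations ran from -0.320 to 0.133, so the letters were not taken as pairs. Of 49 list counts of 1 to 3 genes, 29 moved by over 1.5 times when 1 library was left out, as did 8 of 29 counts of 4 or more.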
